A study of Mus musculus with 2 samples.

Results

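The MHC class I antigen-presentation genes described here were H2-K1, H2-D1, B2m, Tap1, Tap2, Tapbp, H2-T23, Psmb8, Psmb9 and Nlrc5, which are 10 of the 31053 genes in the count files. All 10 were found by symbol. They were followed through retinal cell classes set by marker genes, with bipolar neurons set beside microglia and retinopathy beside control. The genes were chosen with their levels in these same cells known, so every difference between OIR and control and between bipolar-like and microglia-like cells is a description and carries no test.

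The study profiled single cells of the mouse retina after selection with magnetic beads against CD11b, an integrin on the surface of microglia and other myeloid cells. The OIR library came from 6 wild-type C57BL/6 mice with oxygen-induced retinopathy (OIR) at postnatal day 17. In this model pups breathe 75% oxygen between postnatal days 7 and 12, which stops the growth of retinal vessels, and the tissue is short of oxygen once they return to room air. The control library came from 6 wild-type C57BL/6 mice of the same age, labelled as control. Retinas of each group were pooled before dissociation, so a group is 1 library, single mice cannot be told apart, and no difference has a replicate check. All intervals given are exact, at a level of 95%, and reflect only the error of counting.

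The OIR library held 7283 barcodes and 49773742 UMIs (unique molecular identifiers, each a counted RNA molecule), and the control library held 10826 barcodes and 50081145 UMIs. After filtering, 6136 OIR cells with a median of 2810 UMIs and 8582 control cells with a median of 1653.5 UMIs were kept, and 28 of their barcodes occurred in both libraries. The labels call the cells retinal microglia, but rod-like cells made up 60.8% of OIR cells and 78.2% of control cells. Microglia-like cells made up 7.86% of OIR cells and 8.51% of control cells, 482 and 730 cells. Bipolar-like cells numbered 474 in OIR and 268 in control, cone-like cells 603 in OIR and 289 in control. Müller glia-like cells numbered 419 in OIR and 267 in control. Their median depths were 6265 UMIs in OIR and 7265 in control for bipolar-like cells, and 5343.5 UMIs in OIR and 6515.5 in control for microglia-like cells. Clusters were named by the same marker lists, so marker levels describe the classes and are no check of the names. Levels are in CPM, the usual depth-scaled count, from the UMIs of a gene over all UMIs of the class. The 11 bipolar markers summed to 12460 CPM in OIR and 10607 CPM in control bipolar-like cells, against 47.9 and 42.8 CPM in microglia-like cells. The 15 microglia markers summed to 33343 CPM in OIR and 43640 CPM in control microglia-like cells. The clusters nearest to microglia, led by Rp1, Hbb-bs, Plac8, Igkc and Cxcl10, stayed outside the class because markers of another class led them; they held 1.52%, 0.847%, 0.473%, 0.424% and 0.326% of OIR cells and 0.699%, 0%, 0.117%, 0.571% and 0.221% of control cells. Sex-linked RNA was unequal between the pools, to a degree that differed by gene and class. The Y-linked gene Ddx3y stood at 8.96 CPM in OIR and 25.6 CPM in control microglia-like cells. In bipolar-like cells it stood at 17.8 and 22.5 CPM. The X-linked RNA Xist stood at 949 CPM in OIR and 962 CPM in control microglia-like cells. In bipolar-like cells Xist stood at 5035 and 3232 CPM. The part of sex-linked differences in the results was not tested.

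MHC class I molecules carry short peptides from proteins made inside a cell to its surface, where CD8 T cells and some natural killer cell receptors read them. The immunoproteasome subunits Psmb8 and Psmb9 cut proteins into peptides, and the Tap1 and Tap2 transporter moves the peptides into the endoplasmic reticulum. Tapbp (tapasin) helps to load them, and the loaded heavy chain travels to the cell surface in complex with the light chain B2m. H2-K1 and H2-D1 encode the classical heavy chains of the mouse, H2-T23 the non-classical heavy chain Qa-1, and Nlrc5 the transactivator of class I promoters. Resting neurons are known for low class I levels, and class I molecules in the nervous system have also been linked to synapse remodelling.

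Of the 10 genes, 8 lie in the MHC on chromosome 17, all annotated as protein-coding in build mm10. H2-K1 spans chr17:33996017-34000347 (minus strand), Tapbp chr17:33915899-33929292 (plus), Psmb9 chr17:34181987-34187764 (minus), Tap1 chr17:34187553-34197225 (plus), Psmb8 chr17:34197721-34201454 (plus) and Tap2 chr17:34203527-34216321 (plus). H2-D1 lies further along at chr17:35262730-35267499 (plus) and H2-T23 at chr17:36029773-36032855 (minus). B2m is on chromosome 2 at chr2:122147686-122153083 (plus) and Nlrc5 on chromosome 8 at chr8:94434356-94527272 (plus). Promoters of 8 of the 10 genes were found in the RefSeq table of build GRCm38.p6 (the reference release of mm10), which gives 250 bases before and 50 bases after the start. The promoters of the 3 heavy chains and of B2m are shown because the results turn on the unequal levels of these genes in the same cells. Capitals mark matches, on either strand, to the palindrome GGGGATTCCCC (a known NF-kappaB site of the H2-K1 promoter), to AGTTTCACTTC (the interferon response element known beside it) or to GAAA, any 2 bases and GAAA (a core of interferon response elements).
H2-K1, chr17:34000298-34000597, minus strand: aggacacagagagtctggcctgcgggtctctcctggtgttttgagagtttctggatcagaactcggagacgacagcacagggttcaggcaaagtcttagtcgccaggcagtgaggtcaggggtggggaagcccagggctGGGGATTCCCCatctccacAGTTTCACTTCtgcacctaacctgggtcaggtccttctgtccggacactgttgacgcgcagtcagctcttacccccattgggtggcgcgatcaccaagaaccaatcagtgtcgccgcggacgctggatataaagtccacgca
H2-D1, chr17:35262844-35263143, plus strand: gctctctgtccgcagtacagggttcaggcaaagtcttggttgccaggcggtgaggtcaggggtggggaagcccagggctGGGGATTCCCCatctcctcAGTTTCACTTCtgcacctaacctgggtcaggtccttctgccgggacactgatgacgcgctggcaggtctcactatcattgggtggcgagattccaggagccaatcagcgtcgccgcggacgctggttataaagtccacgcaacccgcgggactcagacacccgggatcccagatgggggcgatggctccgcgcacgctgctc
H2-T23, chr17:36032652-36032951, minus strand: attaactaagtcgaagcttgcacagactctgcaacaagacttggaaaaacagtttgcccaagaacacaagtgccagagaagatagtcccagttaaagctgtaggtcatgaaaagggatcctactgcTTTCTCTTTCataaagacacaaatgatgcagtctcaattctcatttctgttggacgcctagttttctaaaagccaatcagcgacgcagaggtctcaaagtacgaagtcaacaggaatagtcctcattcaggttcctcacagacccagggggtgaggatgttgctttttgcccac
B2m, chr2:122147437-122147736, plus strand: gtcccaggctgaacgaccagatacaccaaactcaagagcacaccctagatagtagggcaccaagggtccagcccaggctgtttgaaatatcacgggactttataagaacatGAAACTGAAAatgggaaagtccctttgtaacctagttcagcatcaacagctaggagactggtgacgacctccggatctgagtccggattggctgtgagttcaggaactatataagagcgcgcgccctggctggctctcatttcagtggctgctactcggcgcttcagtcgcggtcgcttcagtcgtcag
The palindrome begins at position -111 of H2-K1 and -171 of H2-D1, for the first of the 2 H2-K1 starts listed and with the start as position 1, and occurs in 10 of the 32851 promoters of the table (0.0304%). AGTTTCACTTC begins at -92 in H2-K1 and -152 in H2-D1 and occurs in 17 of 32851 promoters (0.0517%), that of the heavy chain gene H2-Q7 among them. This motif was picked after the H2-K1 sequence had been read. The GAAA pair begins at -139 in B2m and, on the reverse strand, at -124 in H2-T23, and occurs in 1131 of 32851 promoters (3.44%). The letters searched do not occur in the windows of Tap1, Tapbp, Psmb8 and Psmb9. The matches are a description of the letters and not of a factor's binding.

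In OIR bipolar-like cells H2-K1 and H2-T23 were higher than in control bipolar-like cells. H2-D1 was higher by a smaller ratio, and B2m was near its control level. H2-K1, a classical heavy chain, had 301 UMIs in OIR bipolar-like cells, against 18 UMIs in control. That is 70.6 CPM (62.8 to 79.0) in OIR and 6.54 CPM (3.88 to 10.3) in control, a log2 ratio of 3.43 (2.75 to 4.21). The ratio was the 13th highest of the 7170 genes measured, meaning those with at least 20 CPM in 1 of the libraries. Since the genes were chosen on this comparison, the ranks are a description. H2-T23, the Qa-1 heavy chain, had 106 UMIs (24.8 CPM) in OIR and 10 UMIs (3.63 CPM) in control, with a log2 ratio of 2.77 (1.84 to 3.87) and rank 22. With a stricter cell filter, which left 148 OIR and 36 control bipolar-like cells, its log2 ratio was 1.39. The log2 ratio of H2-K1 was 3.11 with doublet calls kept and 4.29 within one bipolar-like cluster, the lowest and highest of 10 alternatives. H2-D1, the other classical heavy chain, had 131 UMIs (30.7 CPM) in OIR and 62 UMIs (22.5 CPM) in control, and its log2 ratio of 0.45 (0.00 to 0.91) ranked 499. Across 10 alternatives the H2-D1 ratio ran from 0.30, within one bipolar-like cluster, to 0.85 with the stricter cell filter. Near-identical stretches of H2-K1 and H2-D1 could divide reads between the genes, and the treatment of such reads during counting was not stated.

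The light chain and the peptide-supply genes of bipolar-like cells were at low counts. B2m had 38 UMIs (8.91 CPM) in OIR and 25 UMIs (9.08 CPM) in control, a log2 ratio of -0.03 (-0.79 to 0.76). Tapbp had 89 UMIs (20.9 CPM) in OIR and 49 UMIs (17.8 CPM) in control, a log2 ratio of 0.23 (-0.29 to 0.76). Neither interval excludes equal levels. Of the transporter, Tap1 had 10 UMIs in OIR and 2 in control and Tap2 had 17 and 12. Of the immunoproteasome, Psmb8 had 9 UMIs in OIR and 4 in control and Psmb9 had 14 and 3. The transactivator Nlrc5 had no UMI in bipolar-like cells of either library, where 3 counts would be 0.703 CPM in OIR and 1.09 CPM in control and the exact upper limits are 0.865 and 1.34 CPM. Of the 10 genes, 4 reached 20 CPM in 1 library (H2-K1, H2-D1, H2-T23 and Tapbp). Of these 4, 2 were higher in OIR by 1.5-fold or more and 0 were lower by as much. Over all 7170 genes measured in bipolar-like cells, 4.20% were as much higher and 6.81% as much lower, and since the genes were chosen on this comparison nothing is read from the difference. The median log2 ratio of the 4 was 1.61, beside -0.07 over all genes measured.

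**Figure D1:**
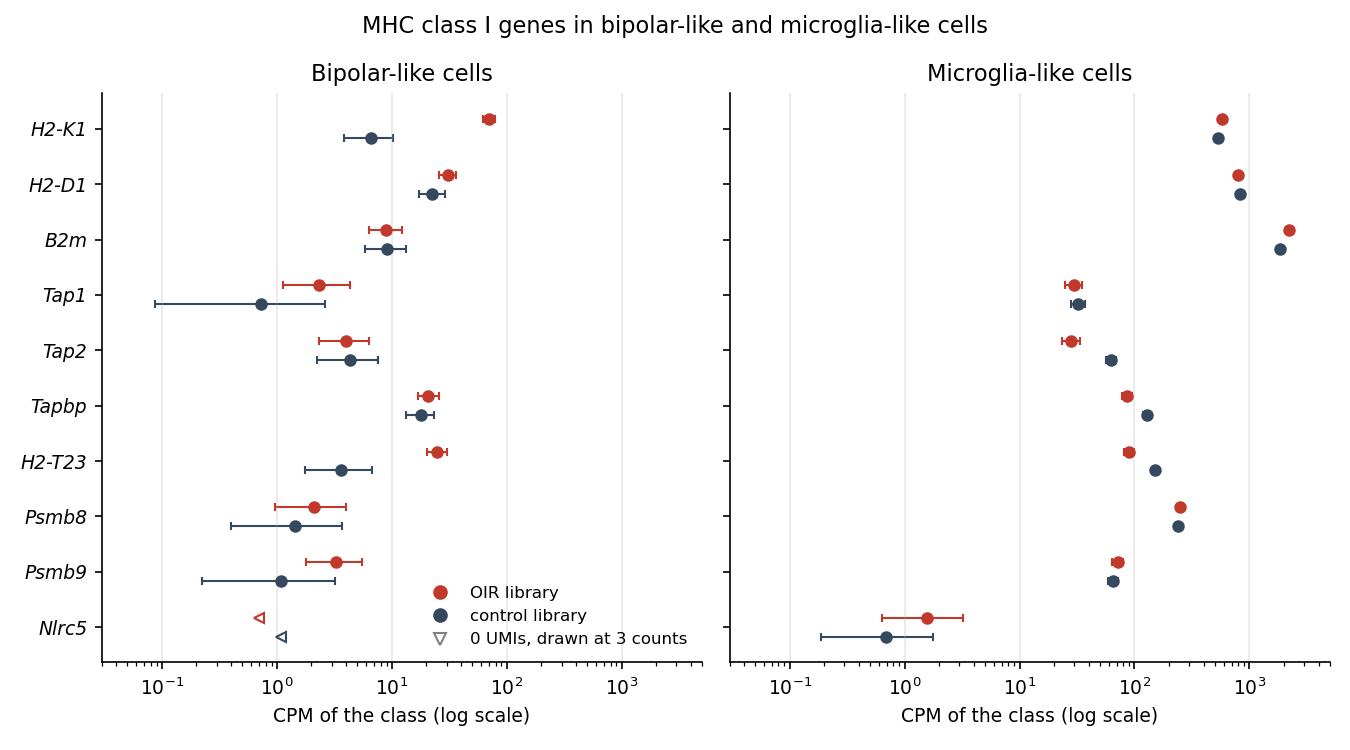
Levels of the 10 genes in bipolar-like cells (left) and microglia-like cells (right), in CPM on a log axis, with OIR in red above control in blue. Bars are exact Poisson intervals at 95%, and open triangles mark 0 UMIs drawn at 3 counts; H2-K1 stands at 70.6 CPM in OIR and 6.54 CPM in control bipolar-like cells, and B2m at 8.91 and 9.08 CPM.

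Both bipolar-like clusters showed the same order. The cluster led by Pcp2, Trpm1 and Car8 carries rod bipolar markers and held 231 OIR and 63 control cells. It had 66 H2-K1 UMIs (49.7 CPM) in OIR and 1 UMI (2.55 CPM) in control. The cluster led by Gsg1, Scgn and Neurod4 carries cone bipolar markers and held 243 OIR and 205 control cells. It had 235 H2-K1 UMIs (80.0 CPM) in OIR and 17 UMIs (7.20 CPM) in control. The log2 ratios were 4.29 (1.76 to 9.61) in the Pcp2-led and 3.47 (2.76 to 4.28) in the Gsg1-led cluster, intervals that overlap. H2-T23 stood at 25.6 CPM in OIR and 5.10 CPM in control in the Pcp2-led cluster, and at 24.5 and 3.39 CPM in the Gsg1-led cluster.

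The excess of H2-K1 was carried by many cells. A UMI of H2-K1 was found in 146 of 474 OIR bipolar-like cells (30.8%) and 16 of 268 control bipolar-like cells (5.97%), with at most 10 UMIs in an OIR cell and 2 in a control cell. After thinning of each cell to 1500 UMIs, 39 of 465 OIR cells (8.39%, 6.03 to 11.3) and 0 of 266 control cells had one, where 3 counts would be a share of 1.13% and the exact upper limit is 1.38%. In rod-like cells, whose median depths were 1549 UMIs in OIR and 1414 in control, the thinned shares were 1.61% and 0.60%. In cone-like cells they were 3.54% in OIR and 3.85% in control. The OIR bipolar share thus stood above that of OIR rods and cones, and the control bipolar share did not stand above that of control rods. For H2-T23 the thinned share was 3.44% of OIR and 0.376% of control bipolar-like cells, beside 0.260% of OIR and 0.233% of control rod-like cells. For H2-D1 it was 4.30% of OIR and 4.14% of control bipolar-like cells, and for B2m 1.29% and 0.752%.

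The balance of H2-K1 to the light chain also differed between cell classes. There were 7.92 H2-K1 UMIs for each B2m UMI in OIR bipolar-like cells, against 0.72 in control, on 38 and 25 B2m UMIs. In microglia-like cells the ratio was 0.261 in OIR and 0.286 in control, in rod-like cells 0.648 and 0.794, and in Müller glia-like cells 0.744 and 1.15. Cone-like cells had 3.12 H2-K1 UMIs per B2m UMI in OIR and 6.07 in control, on 57 and 15 B2m UMIs. In cone-like cells B2m stood at 0.343% of its microglia-like level in OIR and at 0.162% in control. The summed microglia markers stood at 0.225% and 0.153% of their microglia-like level there. The part of microglia RNA in the cone-like B2m counts was not tested. The counts of H2-K1 and B2m are not scaled by gene length, so their ratios compare cells with each other and not the genes.

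Markers of other cells were measured in the same bipolar-like cells. The summed level of the 15 microglia markers was 108 CPM in OIR and 78.1 CPM in control bipolar-like cells, 0.324% and 0.179% of the level in microglia-like cells of the same library. Single markers ranged from 0.00% to 0.383% in OIR and from 0.00% to 0.271% in control, with Sall1 at 0 in both. H2-K1 in bipolar-like cells stood at 12.2% of its microglia-like level in OIR and at 1.24% in control, and H2-T23 at 27.7% and 2.39%. For B2m the shares were 0.402% in OIR and 0.490% in control, above the highest single microglia marker in each library. The OIR level of B2m, 8.91 CPM, lay near the 7.17 CPM that the summed marker share would give. In control B2m stood at 9.08 CPM, beside 3.32 CPM at the summed marker share. The part of microglia RNA in the B2m counts was not tested. T and NK cell markers summed to 2.11 CPM in OIR and 2.54 CPM in control, with 7 of 9 at 0 in each, and monocyte markers to 0.938 and 2.18 CPM. Red cell RNA moved with the result: the 6 erythroid markers summed to 2480 CPM in OIR and 5.81 CPM in control bipolar-like cells. The sums were 77.2 and 5.21 CPM in cone-like, 492 and 6.01 CPM in microglia-like and 173 and 12.1 CPM in rod-like cells. The 35 erythroid-like cells of the OIR library held 0 UMIs of H2-K1 and 1 of H2-T23. The unnamed Hbb-bs-led cluster, best matched by microglia markers, had 52 cells in OIR and 0 in control. It held 565 UMIs of H2-K1 and 2296 of B2m. Rod markers summed to 6555 CPM in OIR and 11403 CPM in control bipolar-like cells, and the part of these RNA differences in the results was not tested.

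**Figure D2:**
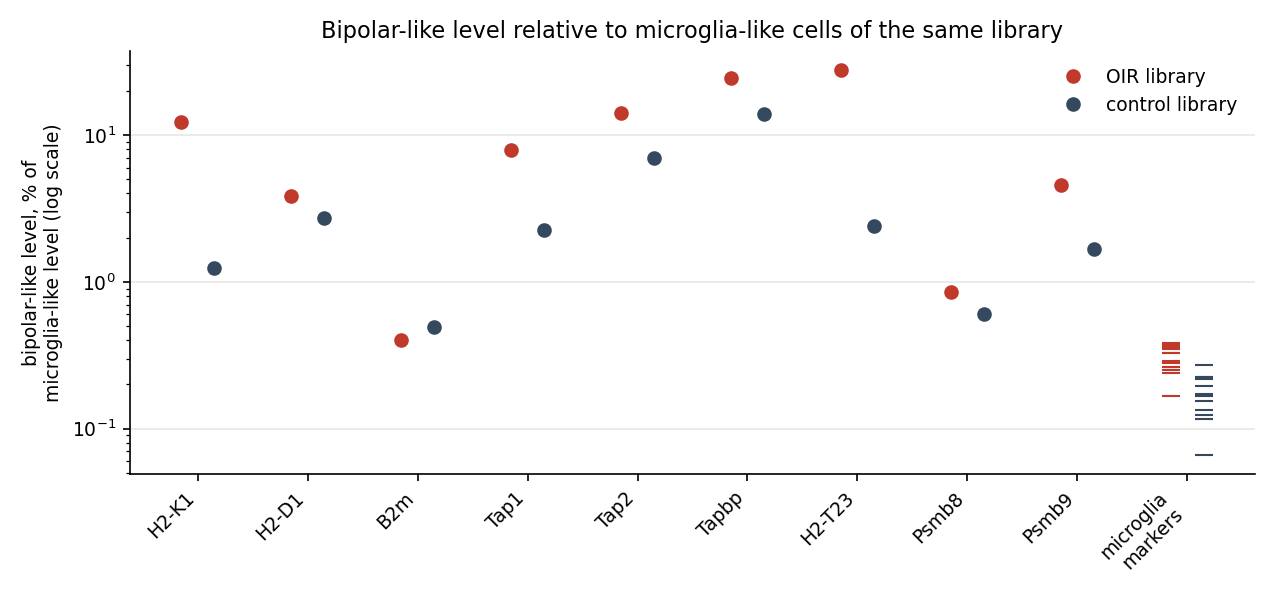
Level of each gene in bipolar-like cells as a percent of its level in microglia-like cells of the same library (log axis), OIR in red to the left of control in blue; Nlrc5 is not drawn. The dashes at the right give the 15 microglia markers one by one, those at 0 left out: H2-K1 stands at 12.2% in OIR and 1.24% in control, and no marker exceeds 0.383%.

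Further genes on chromosome 17 were also higher in OIR bipolar-like cells. The stretch chr17:33996017-36032855 of mm10, which runs from H2-K1 to H2-T23 and was picked after the values had been seen, holds 139 genes of the files, of which 43 were measured in bipolar-like cells. Of these, 5 were at least 1.5-fold higher in OIR (11.6%) and 2 at least 1.5-fold lower, beside 4.20% and 6.81% of all genes measured, and the median log2 ratio was -0.02. Without H2-K1, H2-D1 and H2-T23, 3 of 40 were higher and 2 lower. The 5 were H2-K1, H2-T23, H2-Q7, H2-Ab1 and Ring1. H2-Q7, a non-classical heavy chain of the Qa-2 group, had 198 UMIs (46.4 CPM) in OIR and 7 UMIs (2.54 CPM) in control, a log2 ratio of 4.19 (3.12 to 5.52) and rank 10. H2-Ab1, the beta chain of the class II molecule I-A, had 282 UMIs (66.1 CPM) in OIR and 1 UMI (0.363 CPM) in control, a log2 ratio of 7.51 (5.02 to 12.8) and rank 5. Apart from H2-K1, H2-T23, H2-Q7 and H2-Ab1, the measured genes lay between -0.65 and 0.59. Ring1, a Polycomb protein gene, was at 0.59, and the lower genes were Atat1, a tubulin acetyltransferase, at -0.65 and Gtf2h4, a transcription factor subunit, at -0.59. The partners of H2-Ab1 protein were nearly absent: the alpha chain H2-Aa had 1 UMI in each library, and the invariant chain Cd74 had 5 in OIR and 6 in control. H2-Eb1, a further class II gene and not a partner of H2-Ab1, had 1 UMI in OIR and 0 in control. H2-Q7 has near-identical copies in H2-Q6, H2-Q8 and H2-Q9, so its counts are uncertain between copies.

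**Figure D3:**
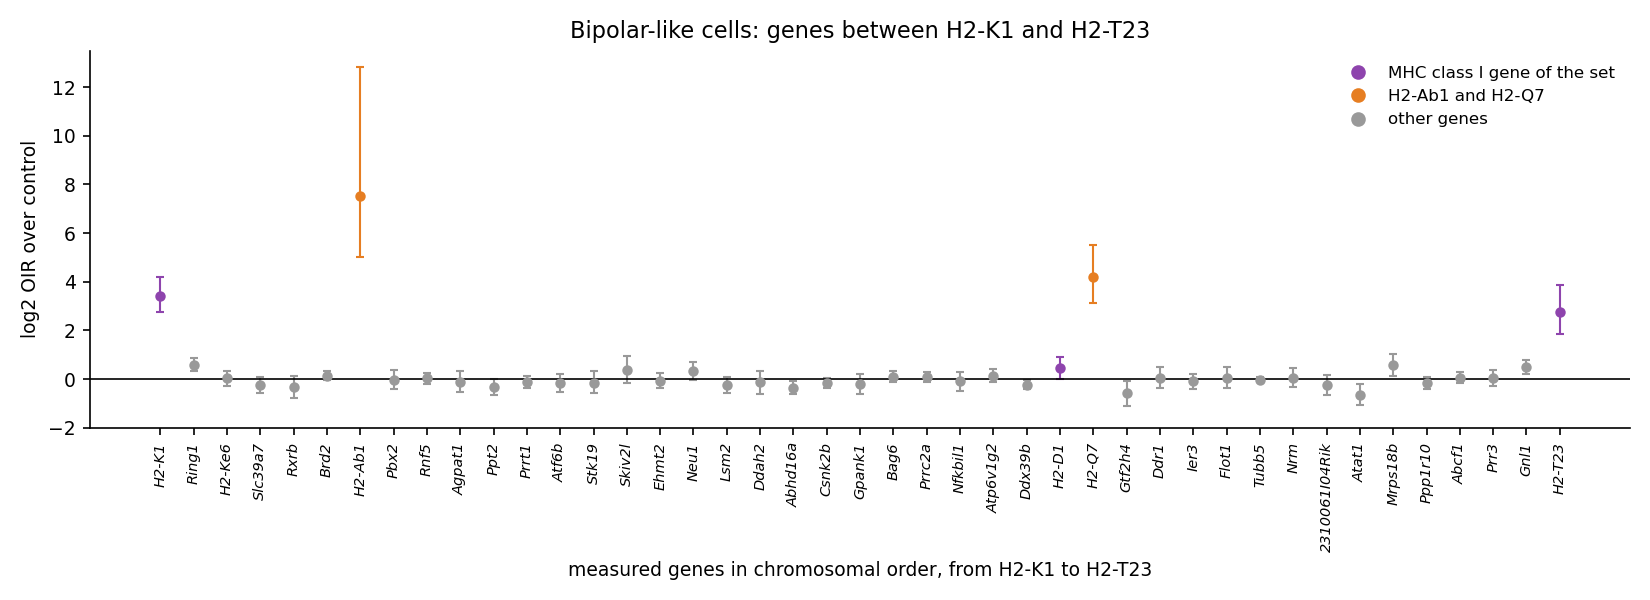
The 43 measured genes from H2-K1 to H2-T23 in chromosomal order along the horizontal axis, with the log2 ratio of OIR over control in bipolar-like cells and its 95% counting interval. H2-K1 (3.43), H2-T23 (2.77), H2-Q7 (4.19) and H2-Ab1 (7.51) stand above the rest, and H2-D1 (0.45) does not.

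H2-Q7 and H2-Ab1 behaved alike in both bipolar-like clusters. The Pcp2-led cluster had 66 H2-Q7 UMIs in OIR and 0 in control, and 119 H2-Ab1 UMIs in OIR and 0 in control. The Gsg1-led cluster had 132 H2-Q7 UMIs in OIR and 7 in control, and 163 H2-Ab1 UMIs in OIR and 1 in control. In photoreceptors the OIR levels were lower than in OIR bipolar-like cells: H2-Q7 was at 0.661 CPM in OIR and 0.101 CPM in control rod-like cells and at 1.20 and 0.601 CPM in cone-like cells. H2-Ab1 was at 1.79 CPM in OIR and 0.101 CPM in control rod-like cells. The few amacrine-like cells had 7 H2-Q7 UMIs (20.5 CPM) in OIR and 0 in control, and 6 H2-Ab1 UMIs (17.6 CPM) in OIR and 2 (6.72 CPM) in control.

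The 4 high genes were found in overlapping sets of cells. Of the 474 OIR bipolar-like cells, 240 had no UMI of H2-K1, H2-T23, H2-Q7 or H2-Ab1, 106 had a UMI of 1 of them, 63 of 2, 44 of 3 and 21 of all 4. Of the 268 control cells, 240 had none, 23 had 1, 5 had 2 and 0 had 3 or 4. Cells with more of the genes were deeper: the OIR medians were 5958 UMIs for cells with none and 15182 UMIs for cells with all 4. Among OIR cells with H2-K1, 33.6% had H2-T23, 39.0% had H2-Q7 and 46.6% had H2-Ab1. Among OIR cells without H2-K1 these shares were 9.45%, 13.4% and 16.2%. The median depth was 7689 UMIs with and 5968 UMIs without H2-K1, and the part of depth in these shares was not tested.

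In microglia-like cells, which held far more class I RNA, the heavy chains and the light chain were near their control levels in OIR, and 3 assembly and non-classical genes were lower. H2-K1 had 2584 UMIs (578.5 CPM, 556 to 601) in OIR and 3082 UMIs (529 CPM, 511 to 549) in control. Its log2 ratio was 0.13 (0.05 to 0.20), and it ran from -0.29, with the microglia-like clusters weighted equally, to 0.22 across alternatives. H2-D1 stood at 793 CPM in OIR and 828 CPM in control, a log2 ratio of -0.06 (-0.12 to 0.00), and of 0.03 with median-of-ratios scaling. B2m, the most counted of the genes, stood at 2213 CPM in OIR and 1852 CPM in control, a log2 ratio of 0.26 (0.22 to 0.30). Tap2, a transporter subunit, had 126 UMIs (28.2 CPM) in OIR and 363 UMIs (62.4 CPM) in control, a log2 ratio of -1.14 (-1.45 to -0.85) that was the 216th lowest of 6039 genes measured. Tap1, its partner, stood at 29.6 CPM in OIR and 32.3 CPM in control, a log2 ratio of -0.13 (-0.46 to 0.20). H2-T23 had 400 UMIs (89.6 CPM) in OIR and 884 UMIs (151.9 CPM) in control, a log2 ratio of -0.76 (-0.94 to -0.59). Tapbp stood at 85.7 CPM in OIR and 128.7 CPM in control, a log2 ratio of -0.59 (-0.77 to -0.41). The immunoproteasome was level: Psmb8 stood at 249 CPM in OIR and 241 CPM in control and Psmb9 at 71.6 and 64.9 CPM. Nlrc5 had 7 UMIs in OIR and 4 in control, too few for a direction.

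Of 9 genes measured in microglia-like cells, 0 were higher by 1.5-fold or more in OIR and 3 were lower by as much. Over all 6039 genes measured there, 13.2% were as much higher and 18.2% as much lower. The median of the 9 was -0.06, beside -0.10 over all genes. Different clusters held most microglia-like cells of each library: those led by Cst7 (119 cells), Iqcb1 and Spp1 (108), Top2a (62), Rps27rt (56) and Mmp12 (54) in OIR, and those led by Egr3 (159), Cebpa (146), Rps27rt (121), Hpgd (117) and Ppp1r15a (113) in control. In the 6 clusters with at least 10 cells of each library, Tap2, Tapbp, H2-T23, H2-K1 and H2-D1 were each lower in OIR in 5 of 6, and B2m in 3 of 6. With these clusters weighted equally, Tap2 was at -0.64, H2-T23 at -0.38 and Tapbp at -0.59. The Mmp12-led cluster, found in OIR only, had H2-K1 at 877 CPM and B2m at 2751 CPM, and the Cst7-led cluster had H2-K1 at 246 CPM in OIR.

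Across the other classes the pattern differed by gene. H2-D1, at a log2 ratio of 0.45 in bipolar-like cells, had higher ratios in photoreceptors. In cone-like cells it stood at 97.3 CPM in OIR and 41.2 CPM in control, a log2 ratio of 1.24 (1.01 to 1.47) and rank 32 of 6536. In rod-like cells it stood at 54.0 CPM in OIR and 17.6 CPM in control, a log2 ratio of 1.62 (1.44 to 1.80) and rank 70 of 6598. The rod-like cluster led by E2f6, Pcolce, Edn2 and Fgf2 held 1251 OIR and 69 control cells and had 91.7 CPM of H2-D1 in OIR and 80.9 CPM in control, and without it the ratio was 1.29. H2-K1 stood at 23.7 CPM in OIR and 18.2 CPM in control cone-like cells, a log2 ratio of 0.38 (0.01 to 0.76), and -0.03 where every cell counted the same. Rod markers summed to 38735 CPM in OIR and 49584 CPM in control cone-like cells. The part of rod RNA in the cone-like levels was not tested. In rod-like cells H2-K1 stood at 10.4 CPM in OIR and 4.29 CPM in control, and B2m at 16.1 and 5.40 CPM, below the 20 CPM minimum in both libraries. Of 3 genes measured in cone-like cells 1 was at least 1.5-fold higher and 0 lower, where 2.68% and 2.03% of all genes measured were. Of 2 measured in rod-like cells 1 was higher and 0 lower, where 5.15% and 1.56% of all genes were.

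Müller glia-like cells, named for the radial support cells of the retina, had higher H2-D1 and B2m in OIR. They also held rod RNA: the rod markers summed to 30538 CPM in OIR and 24288 CPM in control. In rod-like cells these markers summed to 53537 and 63298 CPM. The part of rod RNA in the Müller glia-like levels was not tested. H2-D1 stood at 75.8 CPM in OIR and 40.3 CPM in control Müller glia-like cells, a log2 ratio of 0.91 (0.62 to 1.21). This direction depended on the clustering: it was -0.011 at resolution 2, with 110 OIR and 248 control cells named, and -0.21 with class I genes allowed in the clustering, with 74 and 197. B2m stood at 106 CPM in OIR and 55.5 CPM in control, a log2 ratio of 0.93 (0.68 to 1.19) that stayed between 0.53 and 1.09. H2-K1 stood at 78.7 CPM in OIR and 63.6 CPM in control, and at a log2 ratio of -0.71 under the stricter cell filter, against 0.31. Tap2 stood at 14.9 CPM in OIR and 25.0 CPM in control, a log2 ratio of -0.75 (-1.20 to -0.29). Of 6 genes measured 2 were at least 1.5-fold higher and 1 lower, where 8.74% and 12.9% of all genes measured were. The few amacrine-like cells (34 in OIR and 81 in control) had 18 UMIs of H2-K1 in OIR and 1 in control, a log2 ratio of 3.97 (1.31 to 9.35). Their RNA of other classes was unequal between the libraries. Rod markers summed to 5470 CPM in OIR and 22101 CPM in control, and Müller glia markers to 2184 and 470 CPM. The part of these differences in the amacrine-like ratio was not tested.

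**Figure D4:**
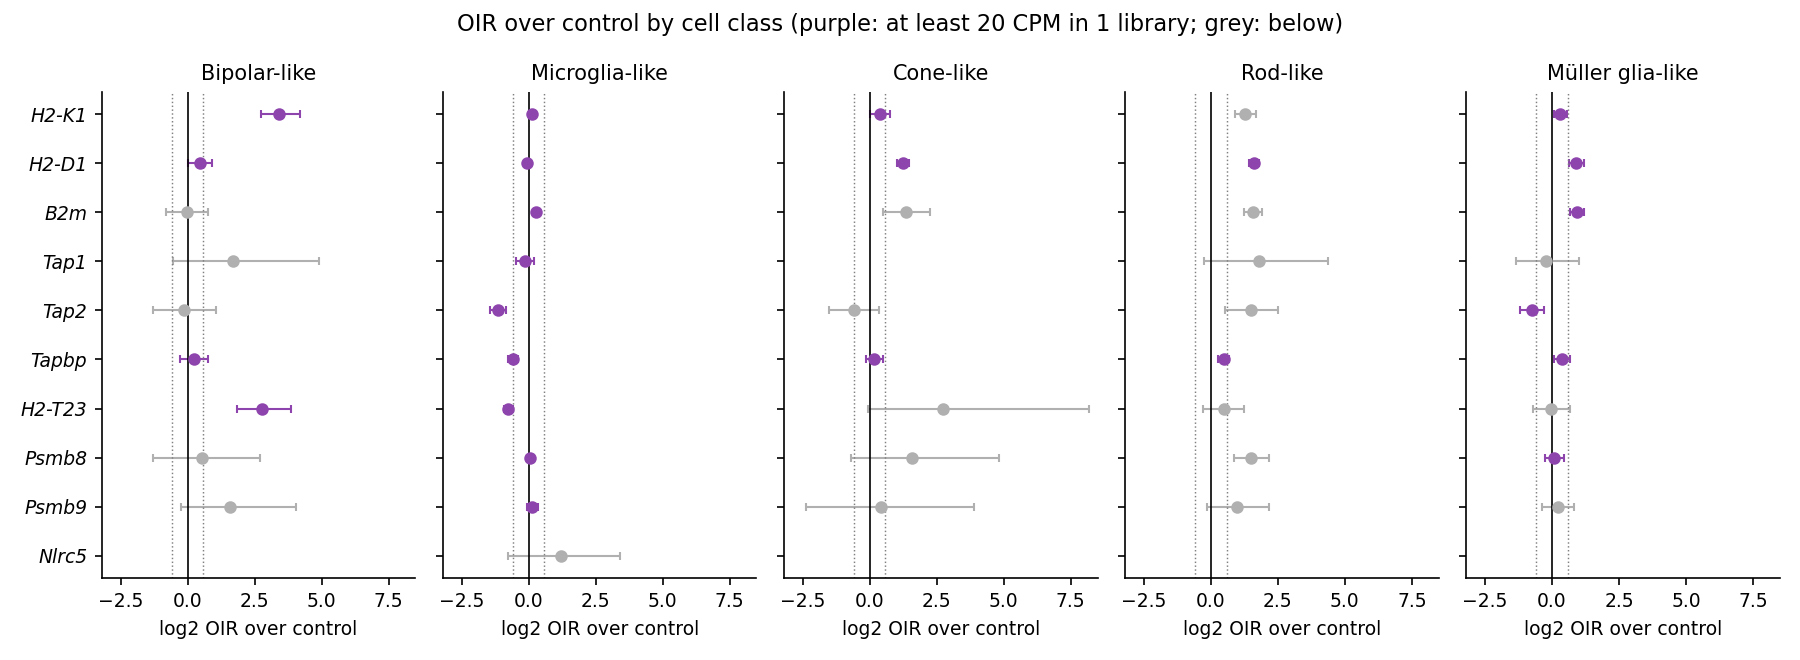
Log2 ratio of OIR over control for each gene in 5 cell classes, with exact 95% counting intervals; purple points have at least 20 CPM in 1 library, grey points less, and dotted lines mark 1.5-fold. Genes with at most 3 UMIs in both libraries or 0 in 1 are not drawn; H2-K1 and H2-T23 stand out in bipolar-like cells, and H2-D1 in cone-like and rod-like cells.

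**Figure D5:**
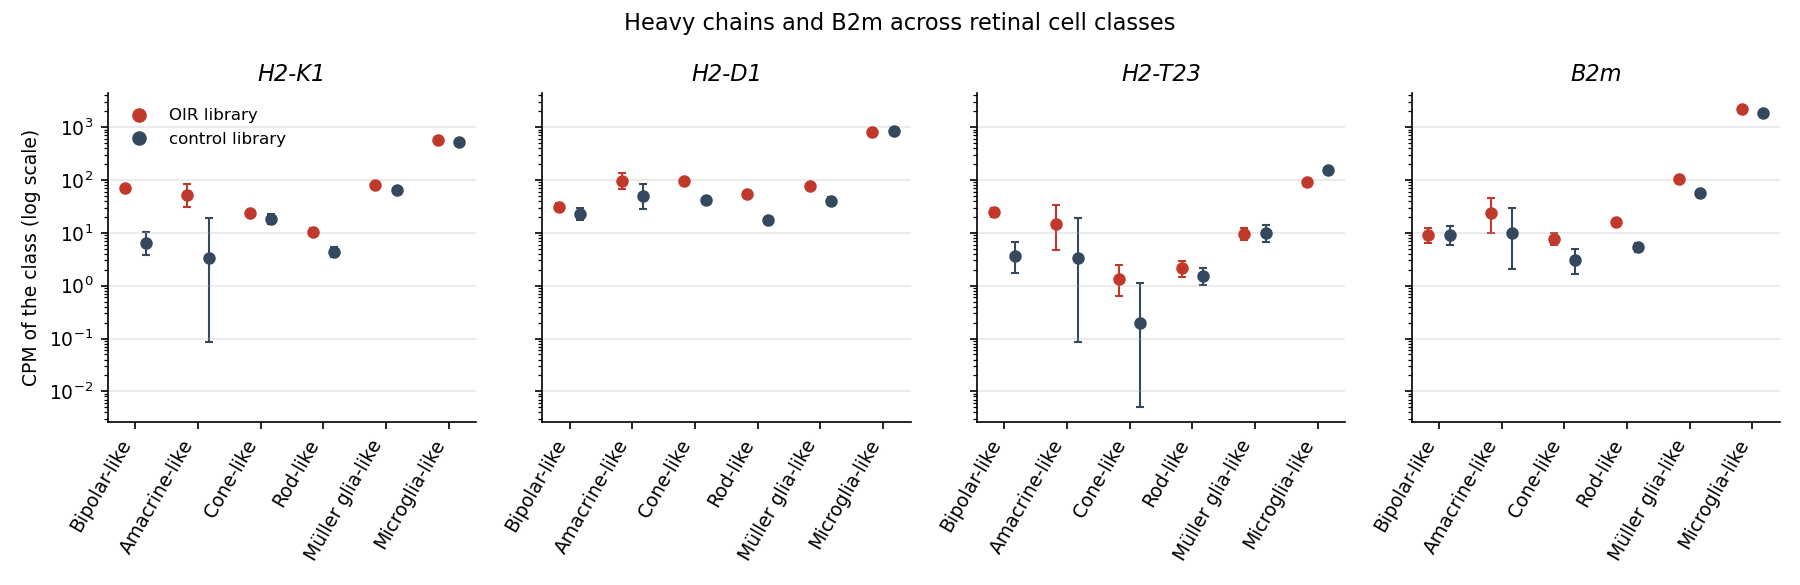
CPM of the 3 heavy chains and B2m in 6 cell classes on a log axis, OIR in red to the left of control in blue, with exact Poisson intervals at 95%. Microglia-like cells hold the highest level of each gene, and H2-K1 in OIR bipolar-like cells (70.6 CPM) stands beside that of OIR Müller glia-like cells (78.7 CPM).

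Bipolar-like cells held less class I RNA than microglia-like cells in both libraries. H2-K1 was 8.20-fold lower in OIR bipolar-like cells than in OIR microglia-like cells and 81.0-fold lower in control, log2 ratios of -3.04 (-3.21 to -2.86) and -6.34 (-7.10 to -5.68). H2-D1 was at -4.69 in OIR and -5.20 in control, B2m at -7.96 and -7.67, and H2-T23 at -1.85 and -5.39. The gap was thus widest for B2m in both libraries among the measured genes, and narrowest for H2-T23 in OIR and for Tapbp in control (-2.85). Of 9 genes measured, 9 were at least 1.5-fold lower in bipolar-like cells in OIR and 9 in control. Over all genes measured, 24.9% of 8076 were as much lower in OIR and 24.8% of 8271 in control, while 53.2% and 53.3% were as much higher. The medians of the 9 were -3.66 in OIR and -5.47 in control, beside 0.71 and 0.72 over all genes. The response to OIR differed most between the classes for H2-T23, which was 2.77 in bipolar-like and -0.76 in microglia-like cells, and for H2-K1, at 3.43 and 0.13; neither difference was tested.

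Other genes of the pathway, from lists chosen with earlier results of these data known, were mostly level in bipolar-like cells, as were most genes. Over all genes measured there, 4.20% were higher and 6.81% lower by 1.5-fold or more. Counts of 0 in these short lists therefore do not set them apart. Of the other class I heavy chains, 10 of 11 are in the files and 1 was measured, H2-Q7. Below the 20 CPM minimum, H2-Q4 had 33 UMIs in OIR and 8 in control and H2-Q6 had 10 and 0. H2-Q2, a heavy chain gene outside the list that was picked after its values were seen, had 52 UMIs (12.2 CPM) in OIR and 0 in control. Its log2 ratio was 3.48 with control set at 3 counts, and the exact lower limit was 3.13. Among loading and trimming genes 3 of 5 were measured and 0 passed 1.5-fold: the chaperones Calr, Canx and Pdia3 had log2 ratios of 0.02, 0.22 and 0.21. The other immunoproteasome and activator genes (Psmb10 at 0.30, Psme1 at 0.06 and Psme2 at 0.16) and the 3 constitutive proteasome subunits also had 0 past the limit. Of 5 promoter factors measured, 0 were higher and 1 was lower, the cAMP-response factor Creb1, at 43.4 CPM in OIR and 66.9 CPM in control. None of the 10 interferon-response genes reached 20 CPM in bipolar-like cells of either library.

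In microglia-like cells the same lists are read beside the 13.2% of all genes measured that were higher and the 18.2% that were lower by 1.5-fold or more. Of 5 promoter factors measured 3 were lower in OIR: Irf1, an interferon-induced activator, stood at 33.6 CPM in OIR and 84.0 CPM in control, and Creb1 and Irf2 had log2 ratios of -0.98 and -0.67. Of 4 interferon receptor chains 2 were lower, Ifngr1 at -0.91 and Ifngr2 at -0.62. Of 3 interferon-response genes measured 2 were higher, Isg15 at 1.57 and Ifi27l2a at 2.26. Of 4 class II genes measured 4 were higher, with the invariant chain Cd74 at 304 CPM in OIR and 56.0 CPM in control and H2-Ab1 at 145 and 25.6 CPM. The constitutive proteasome subunits Psmb6 (1.21) and Psmb7 (0.59) were higher in OIR, and Psmb5 was at 0.42. Of 5 other heavy chains measured 1 was lower, H2-Q4, at 45.7 CPM in OIR and 71.1 CPM in control. On the list of class I receptors and related genes, Lilr4b had 166 UMIs in OIR and 6 in control, a log2 ratio of 5.17, and Pirb was at -0.05. Whether the product of Lilr4b binds class I molecules cannot be told from these data.

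The genes whose levels were most like the mean of H2-K1, H2-D1 and B2m, over 10 profiles of 5 classes in the 2 libraries and among 9370 genes, were Arl4c (Pearson r of 0.989), Shisa5 (0.987), Stat6 (0.987), Pdia3 (0.986) and Fam46a (0.985). The profiles share their libraries and the microglia-like profiles lie far from the rest, so the correlations are a description. Some of the 10 genes overlap others on the genome, and whether strand was used in counting was not stated. H2-T23 lies within the antisense gene A930015D03Rik, which had 46 UMIs in OIR and 13 in control bipolar-like cells. Tapbp overlaps Zbtb22 on the same strand (114 and 73 UMIs) and the antisense gene Gm19412 (58 and 49), Tap1 and Psmb9 share 212 bases on opposite strands, and B2m lies within Patl2, which had 0 UMIs in bipolar-like and microglia-like cells of both libraries.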

How the data were processed

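Single-cell RNA of CD11b-selected retina was counted in 1 OIR and 1 control library. The authors deposited raw UMI counts per gene and barcode, not normalised. They were made with Cell Ranger 3.0.2 on mm10, per the submitters' processing notes. Cell calling and the use of strand were not stated. A barcode was kept with 500 or more genes and no more than 10% mitochondrial UMIs, 6516 of 7283 in OIR and 9454 of 10826 in control. Scrublet's automatic threshold called 1 OIR and 0 control doublets, so the top scorers were removed at a rate of 0.8% per 1000 cells, 424 OIR and 938 control barcodes (5.82% and 8.66%).

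Cells were clustered together in scanpy 1.11.5, without batch integration (2000 variable genes without the class I and list genes, 30 components, 20 neighbours, Leiden resolution 1, then 2 for immune cells alone). A cluster was named where the markers of a class led by a mean log2 difference of at least 0.25, 3 or more were detected and no other class had more markers among its top 10 genes. The naming limit and the immune step were chosen after seeing the data. Clusters best matched by microglia markers but with more markers of another class in their top 10 stayed unnamed and out of the microglia-like class, among them those led by Rp1, Cxcl10 and Hbb-bs. Class names were rebuilt from markers, since no annotation file was used.

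Counts were summed per class and library and scaled to CPM. CPM have exact Poisson, log2 ratios exact conditional binomial and shares Clopper-Pearson intervals at 95%. A single 0 was set to 3 counts, and no ratio was made where both counts were at most 3. With 1 library per group no test was run and no p-value is given. The steps were tested on simulated counts. The 10 genes, the lists and the markers were chosen with earlier results of these data known. By the naming rule all 10 genes, up to 2 genes of each list with the largest ratios and the 5 genes of most similar pattern are named; Ring1, Gtf2h4, Atat1, H2-Q2, Loxl2, Hmox1 and further genes of the lists were named after their values were seen. Alternatives in filters, doublets, clustering, scaling, thinning and limits were recomputed.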

Additional observations from a re-analysis of the deposited data

Results flagged for a closer look

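H2-T23 in bipolar-like against microglia-like cells was picked out because its ratio of OIR over control had opposite signs in the 2 classes. The log2 ratio was 2.77 in bipolar-like cells and -0.76 in microglia-like cells, a difference of 3.54. With 1 library per group the difference was not tested. It was opposite in sign under each alternative tried, with bipolar-like values from 1.39 to 2.85 and microglia-like values from -0.88 to -0.38.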

How the results depend on the processing

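Each group is 1 library, so no setting measures the spread between mice. No paired analysis was possible because each group has 1 library and no test was run. The directions of H2-K1 and H2-T23 in bipolar-like cells and of Tap2, Tapbp and H2-T23 in microglia-like cells held under each alternative run for them. With no minimum CPM, 4 genes were at least 1.5-fold higher in OIR bipolar-like cells (2 as reported) and 1 in OIR microglia-like cells (0 as reported). With a limit of 2-fold, 1 gene was lower in OIR microglia-like cells (3 as reported). The shares of all genes at these changed limits are not given, so nothing is read from the changed counts. H2-D1 in Müller glia-like cells reversed to -0.011 at clustering resolution 2 and to -0.21 with class I genes allowed in the clustering; other cells carried the name in each. In bipolar-like cells Tap1 ranged from -1.03 to 2.01 and Tap2 from -1.29 to 1.56, so low counts give neither a direction. B2m in bipolar-like cells stood at -10.3 against OIR microglia-like cells once RNA at the share of the microglia markers was subtracted, against -7.96. The thinned share of control bipolar-like cells with H2-K1 was 0% at 1000 UMIs and 2.28% at 2500. Of the remaining recomputed values, 385 moved by less than their counting interval and 69 by more.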

Other observations

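Class I levels outside the classes compared above were high in several myeloid clusters. The 59 border macrophage-like cells of the OIR library, perivascular and meningeal relatives of microglia, had H2-K1 at 989 CPM, H2-D1 at 1298 CPM and B2m at 2293 CPM. An unnamed cluster led by Plac8, a monocyte gene, with 29 OIR and 10 control cells had H2-D1 at 1652 CPM in OIR and 1662 CPM in control. An unnamed cluster led by the interferon-induced chemokine Cxcl10, with 20 OIR and 19 control cells, had H2-K1 at 738 CPM in OIR and 1305 CPM in control and H2-T23 at 155 and 407 CPM. It lay outside the microglia-like class because its leading genes include markers of another class.

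An unnamed cluster led by the endothelial tight junction gene Cldn5 and the pericyte gene Rgs5, with 16 OIR and 48 control cells, had lower heavy chain levels in OIR. H2-K1 stood at 51.0 CPM in OIR and 164 CPM in control, H2-D1 at 211 and 476 CPM and H2-T23 at 12.1 and 133 CPM, while B2m stood at 393 CPM in OIR and 263 CPM in control. Pigment epithelium-like cells had B2m at 424 CPM in OIR and 239 CPM in control on 71 and 24 UMIs, with 2 and 1 UMIs of H2-K1. These cells are few, and the mix of vessel cell types in each library was not tested.

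In bipolar-like cells the genes with the highest ratios of OIR over control were the haemoglobin genes (ranks 1 to 4), then H2-Ab1, the collagen crosslinker Loxl2 (34.0 CPM in OIR and 1.09 CPM in control) and the haem-degrading enzyme Hmox1 (25.8 and 1.09 CPM).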
